A study of Macaca mulatta with 24 samples.

Results

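The comparison is of cerebral cortex messenger RNA between HFS+R monkeys, which ate a high-fat/high-sugar diet with resveratrol (RSV), and SD monkeys, which ate a standard diet. The 14 arrays were chosen by their labels, 10 of HFS+R and 4 of SD, out of 24 in all, and the other 10 are of monkeys on the high-fat/high-sugar diet alone (HFS). All were male rhesus monkeys (Macaca mulatta), 7 to 13 years old as the study lists its animals, with 1 array per monkey. They were sampled after 24 months of diet, and the listed ages may be from before it. Fat made up 13% of the kcal of the SD and sucrose under 5% of its weight, against 42% and 27% in the diet of the HFS+R monkeys. HFS+R monkeys were given 2 treats a day, with 40 mg RSV apiece during year 1 and 240 mg during year 2, and SD monkeys were given placebo treats. The contrast therefore holds the diet and the RSV together, and on these 14 arrays their parts cannot be told apart.

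Resveratrol is a plant polyphenol that has been studied for effects on sirtuins, AMPK and the vessel wall. Diets rich in fat and sugar bring weight gain and insulin resistance. The cerebral cortex is mostly neurons, glia and vessels, and its messenger RNA is dominated by transcripts for synapses, ion channels, energy metabolism and protein turnover. Whole pieces of cortex were measured, so fewer cells of a type and less RNA per cell cannot be told apart.

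Levels are Z-normalized log2 signals multiplied by a common factor, so that a difference of 1 stands for a 2-fold change. The beadchip carries human probes, and their fit to monkey transcripts was not tested. A gene was measured if a probe was detected (p under 0.01) on at least 4 arrays, which left 9884 genes. The number of detected probes was 13613 ± 1501 (SD, n = 4) on SD and 13709 ± 611 (SD, n = 10) on HFS+R arrays (2-sided exact permutation test, p = 0.887), and SD replicate 3 had the fewest, 11413. The tissue carried its defining markers, with SLC17A7, GAD1, GFAP and MBP detected on all 24 arrays. The mean endothelial marker level, with each gene scaled to an SD of 1, ran from −0.996 to −0.058 on SD and from −0.461 to 0.649 on HFS+R arrays, and all 7 measured markers were above 0 in fold change (2-sided exact permutation test, p = 0.00599, adjusted p = 0.0779 over 13 array measures). By limma 0 of these 7 genes were called and 2, TEK and EMCN, had an unadjusted p under 0.05. Their part in the results below was not tested beyond the covariate fit given with the counts. The other measures had an adjusted p of 0.566 or more, with oligodendrocyte markers at a mean of 0.32 in HFS+R against −0.16 in SD, excitatory neuron markers at 0.07 against −0.02, astrocyte markers at 0.06 against 0.40, and blood markers at 0.07 against −0.57. All 4 measured blood genes were above 0 in fold change, with a median log2 fold change of 0.79, and 0 of them were called.

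HFS+R and SD cortex differed in 623 of the 9884 genes, 6.3% of those tested (limma, Benjamini-Hochberg adjusted p under 0.05). More genes were lower than higher in HFS+R: 405 were lower (4.1%) and 218 higher (2.21%). The lower calls were also larger. Their median log2 fold change was −0.48 against 0.33 for the higher calls, 138 lower and 9 higher genes passed 1.5-fold, and 14 lower and 0 higher genes passed 2-fold. Over all genes the median was 0.01, and at an unadjusted p under 0.05 (limma) 935 genes were higher and 1080 lower. With each array scaled by its median in place of the Z normalization, which shifts the median of all genes to −0.03, 331 genes were lower and 30 higher. Leaving out SD replicate 2 gave 354 calls and leaving out SD replicate 3 gave 373. The excess of lower genes did not hold without SD replicates 1 and 2 together, where 172 were higher and 153 lower.

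**Figure D1:**
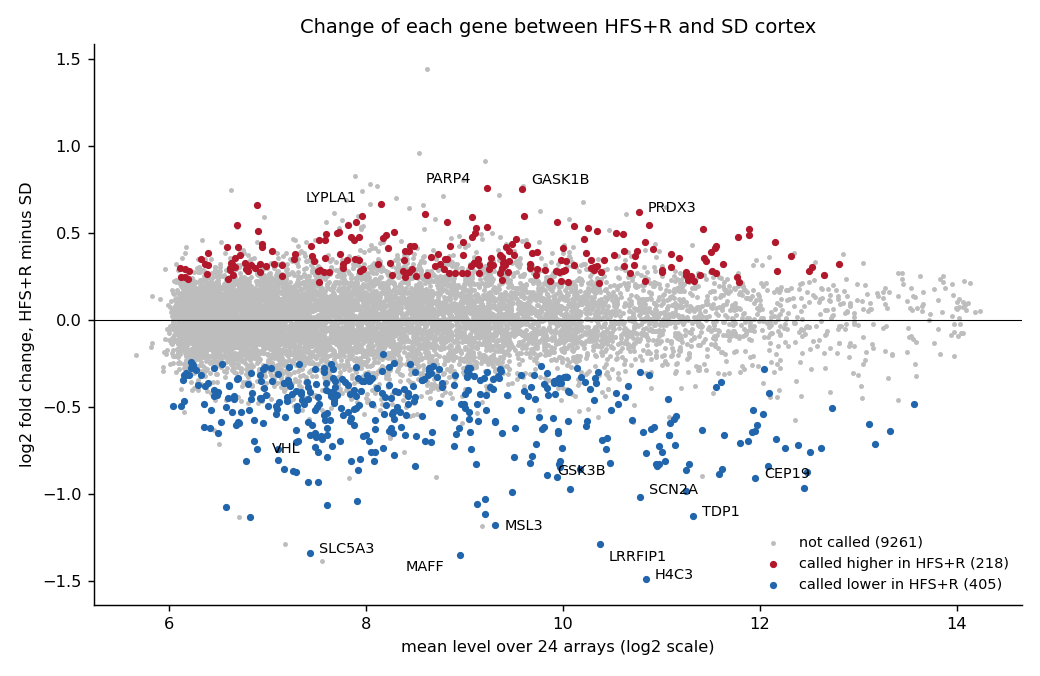
Log2 fold change of each of the 9884 genes (HFS+R minus SD, vertical axis) against its mean level over 24 arrays (log2 scale, horizontal axis). Red points are the 218 genes called higher, blue points the 405 called lower and grey points the rest, and the blue points reach lower (H4C3, −1.49) than the red ones reach up (PARP4, 0.76).

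The largest falls were of a histone gene, a small Maf transcription factor, an inositol transporter and a nucleic acid-binding protein. H4C3, a gene for a core histone of chromatin with many near-identical copies in the genome, measured 11.42, 11.78, 11.09 and 11.75 on the SD arrays and from 9.15 to 11.05 (median 10.10) on the HFS+R arrays. Every HFS+R array lay below the lowest SD array, with a log2 fold change of −1.49 (SE 0.29, adjusted p = 0.00223), or 2.81-fold lower, and the HFS arrays averaged 11.40 ± 0.51 (SD, n = 10). Its signal cannot be assigned to H4C3 with certainty, since the copies share sequence. MAFF, which pairs with NRF2-type factors at antioxidant and stress genes, stood at 10.40, 10.21, 9.73 and 9.43 on the SD arrays and from 7.95 to 9.25 (median 8.54) on the HFS+R arrays. Its groups did not overlap either, with a difference of −1.35 (SE 0.21, adjusted p = 0.000436), and HFS arrays averaged 8.92 ± 0.32. SLC5A3, which carries myo-inositol into cells with sodium, measured 8.38, 8.14, 7.93 and 8.20 on the SD arrays and from 6.42 to 7.54 (median 6.65) on the HFS+R arrays. All HFS+R arrays were below all SD arrays, by −1.34 (SE 0.21, adjusted p = 0.000428) on average. LRRFIP1, a protein that binds nucleic acids, was at 11.59, 11.46, 10.95 and 11.01 on the SD arrays and from 9.27 to 10.71 (median 9.85) on the HFS+R arrays, without overlap, for a difference of −1.29 (SE 0.21, adjusted p = 0.000639).

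The smallest p of the comparison belonged to MSL3, a chromatin-reading subunit of the male-specific lethal complex, which acetylates histones. It measured 10.01, 10.15, 9.94 and 9.98 on the SD arrays and from 8.44 to 9.26 (median 8.88) on the HFS+R arrays. The SD values lay within 0.21 of each other and the highest HFS+R value was below them all, with a log2 fold change of −1.18 (SE 0.12, adjusted p = 5.89e-06). Of its other probes the next brightest gave −1.03 and the third 0.08, so they differed among themselves. TDP1, a repair enzyme that frees stalled topoisomerase from DNA, measured 12.28, 12.06, 11.82 and 11.92 on the SD arrays and from 10.49 to 11.29 (median 10.82) on the HFS+R arrays, a difference of −1.13 (SE 0.14, adjusted p = 9.35e-05) with no overlap. Its second probe gave −0.04. TAOK1, a kinase of the stress-activated cascades, was at 7.63, 7.74, 7.19 and 7.46 on the SD arrays and from 5.95 to 6.74 (median 6.41) on the HFS+R arrays, a difference of −1.13 (SE 0.16, adjusted p = 0.000344). It was detected on 6 of the 10 HFS+R arrays, so the lower level is close to background and the size is not exact.

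The next falls in size included a myosin, a fucosyltransferase and a deubiquitinase. MYO3B, an unconventional myosin with a kinase domain, was lower by −1.11 (SE 0.18, adjusted p = 0.000431) with SD levels of 10.17, 10.03, 9.82 and 9.85 against 8.25 to 9.42 (median 8.78) in HFS+R. FUT6, a fucosyltransferase, differed by −1.06 (SE 0.16, adjusted p = 0.000428) and MINDY1, an enzyme that trims ubiquitin chains, by −1.03 (SE 0.15, adjusted p = 0.000369). In each of these 3 genes all HFS+R values were below all SD values. RYBP, a subunit of Polycomb repressor complexes, was lower by −1.06 (SE 0.29, adjusted p = 0.0249), but its groups overlapped and its call ended without SD replicate 1, 2 or 4 (adjusted p up to 0.128 without SD replicate 2). PLXDC2, a membrane protein with a plexin repeat, was lower by −1.04 (SE 0.25, adjusted p = 0.0114), with overlap, and reached an adjusted p of 0.0624 without SD replicate 1 and 0.151 without SD replicates 1 and 2 together. The second probe of PLXDC2 gave −0.10.

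The 12 largest rises included a mitochondrial peroxiredoxin, a Golgi-associated kinase homolog, a calcineurin subunit and a vesicle coat protein. PRDX3, the peroxiredoxin that removes hydrogen peroxide in mitochondria, measured 10.66, 10.18, 10.26 and 10.58 on the SD arrays and from 10.82 to 11.35 (median 11.02) on the HFS+R arrays. All HFS+R arrays were above all SD arrays, with a log2 fold change of 0.62 (SE 0.10, adjusted p = 0.000678), or 1.54-fold, and the second probe moved the same way by 0.77. HFS arrays averaged 10.65 ± 0.15 for PRDX3. GASK1B, a Golgi-associated kinase homolog, stood at 9.43, 9.09, 8.95 and 8.63 on the SD arrays and from 9.47 to 10.20 (median 9.75) on the HFS+R arrays. Its lowest HFS+R value was just above its highest SD value, for a difference of 0.75 (SE 0.15, adjusted p = 0.00281). PPP3CA, the catalytic subunit of calcineurin, measured 9.21, 9.10, 9.28 and 9.43 on the SD arrays and from 9.61 to 10.00 (median 9.85) on the HFS+R arrays. Its groups did not overlap and the difference was 0.60 (SE 0.09, adjusted p = 0.000428), with HFS arrays at 9.49 ± 0.19. SEC23A, a coat protein of vesicles that leave the endoplasmic reticulum, was higher by 0.60 (SE 0.11, adjusted p = 0.0016), with 9 of 10 HFS+R arrays above the highest SD array.

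The remaining large rises were less steady. PARP4, a poly(ADP-ribose) polymerase of vault particles, had the largest fold change of the higher calls, 0.76 (SE 0.22, adjusted p = 0.0384), with SD levels of 9.16, 9.09, 8.42 and 8.12 against 8.85 to 10.01 (median 9.47) in HFS+R. The groups overlapped, and its call ended without any 1 of 7 of the 24 arrays, SD replicates 3 and 4 and HFS+R replicates 4, 5, 6, 7 and 9 (adjusted p up to 0.184 without SD replicate 4). LYPLA1, which removes palmitate from proteins, was higher by 0.67 (SE 0.15, adjusted p = 0.00603) without overlap, and had an adjusted p of 0.0527 without SD replicate 3. PDRG1, a prefoldin-like protein, differed by 0.66 (SE 0.16, adjusted p = 0.0114) and KRT14, a keratin known from basal epithelium, by 0.56 (SE 0.12, adjusted p = 0.00469), both without overlap, though PDRG1 did not pass without SD replicates 1 and 2 together (0.114). RNF13, a ubiquitin ligase of endosomal membranes, was higher by 0.61 (SE 0.14, adjusted p = 0.0104) and MTNAP1, a protein of mitochondrial nucleoids, by 0.57 (SE 0.13, adjusted p = 0.00903), and without SD replicate 4 their adjusted p was 0.0734 and 0.0701. TMEM35A, a chaperone of nicotinic receptors, was higher by 0.59 (SE 0.11, adjusted p = 0.00206), and AASDHPPT, which attaches phosphopantetheine to carrier proteins, by 0.57 (SE 0.12, adjusted p = 0.00434). Median scaling ended the calls of PARP4, RNF13, MTNAP1, TMEM35A, AASDHPPT and KRT14, at adjusted p values of 0.126, 0.109, 0.0715, 0.069, 0.109 and 0.0604.

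**Figure D2:**
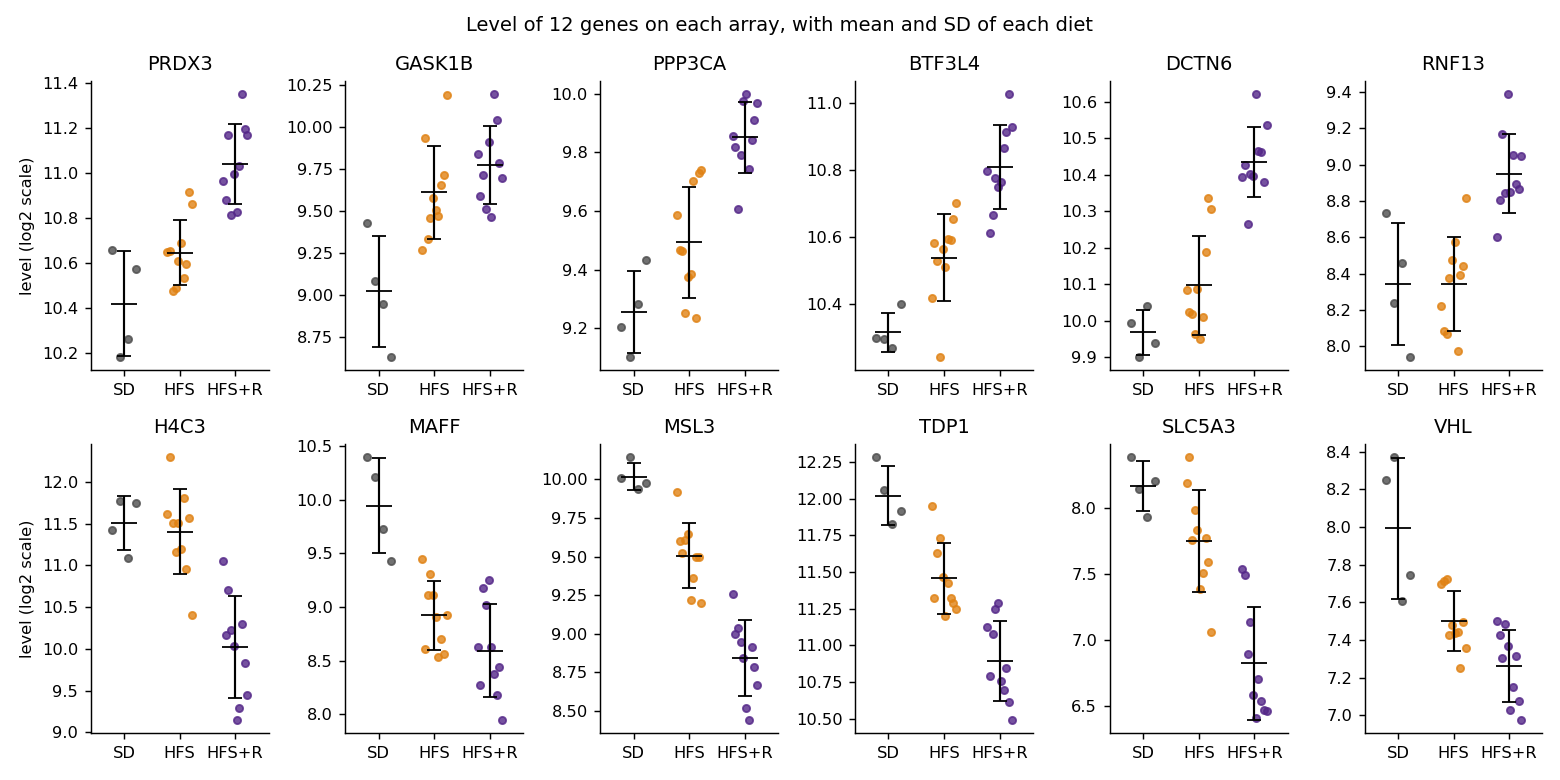
Level (log2 scale, vertical axis) of 12 genes on each of 4 SD, 10 HFS and 10 HFS+R arrays, 1 point per array, with the mean and SD of each group in black. The top row holds genes called higher in HFS+R than in SD and the bottom row genes called lower, and in every panel except that of RNF13 the HFS+R points do not overlap the SD points.

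In 143 genes every HFS+R array was above every SD array, and in 253 every HFS+R array was below, which is 1.45% and 2.56% of the genes tested. Of these, 103 and 218 were also called. The non-overlapping lower genes of smallest p included SCN2A, the pore of a sodium channel of excitatory neurons, with 11.40, 11.26, 11.34 and 11.29 on the SD arrays and from 10.04 to 10.86 (median 10.20) on the HFS+R arrays. The SD arrays were close together and the difference was −1.02 (SE 0.13, adjusted p = 0.00013), while the other probes of SCN2A gave −0.12 and −0.13. CEP19, a centrosomal protein of cilia, measured 12.57, 12.50, 12.48 and 12.51 on the SD arrays and from 11.21 to 11.86 (median 11.57) on the HFS+R arrays, a difference of −0.91 (SE 0.13, adjusted p = 0.000369). Its other probes gave 0.09 and −0.14. PATE2, a small protein known from the male reproductive tract, had SD levels of 8.49, 8.42, 8.22 and 8.34 against 7.13 to 7.84 (median 7.58) in HFS+R, a difference of −0.81 (SE 0.11, adjusted p = 0.000344).

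The rises of smallest p without overlap were modest in size. BTF3L4, a relative of a nascent-chain binding factor, measured 10.30, 10.30, 10.27 and 10.40 on the SD arrays and from 10.61 to 11.02 (median 10.79) on the HFS+R arrays. The 4 SD values spanned 0.13, the groups were apart and the difference was 0.49 (SE 0.08, adjusted p = 0.000428), with the second probe at 0.46. DCTN6, a subunit of the dynactin complex that links cargo to dynein, measured 9.99, 9.90, 10.04 and 9.94 on the SD arrays and from 10.27 to 10.62 (median 10.42) on the HFS+R arrays, a difference of 0.47 (SE 0.07, adjusted p = 0.000428) without overlap, and its second probe gave 0.11. GOLM2, a Golgi membrane protein, differed by 0.53 (SE 0.09, adjusted p = 0.000507), and PXK, a protein of endosomes with a kinase-like domain, by 0.51 (SE 0.08, adjusted p = 0.000497). Both had all 10 HFS+R arrays above the 4 SD arrays, and the second probe of GOLM2 gave 0.20.

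Gene lists were described by counts beside the 2.21% of all genes called higher and the 4.1% called lower. Of 35 measured genes for glutamate receptors and the postsynaptic density, 2 were lower and 1 higher. In fold change 25 of the 35 were below 0 and 10 above (28.6%, against 52.3% of all genes). Their median was −0.12 against 0.01 over all genes (−0.05 without SD replicate 3). GRIN2B, an NMDA receptor subunit, measured 6.79, 7.36, 7.38 and 7.36 on the SD arrays and from 6.09 to 6.83 (median 6.38) on the HFS+R arrays. On 9 of 10 HFS+R arrays it was below the lowest SD array, and the difference was −0.81 (SE 0.14, adjusted p = 0.00128), but it was detected on 5 of the 10 HFS+R arrays, so the size is not exact. Of the calcium/calmodulin kinases that carry glutamate signals, CAMK2D was lower by −0.44 (SE 0.10, adjusted p = 0.00599) and CAMK2G higher by 0.45 (SE 0.10, adjusted p = 0.00846), with CAMK2G at an adjusted p of 0.0772 without SD replicate 3 and of 0.267 with median scaling, and CAMK2D at 0.114 without SD replicates 1 and 2 together. The other probes of CAMK2D gave −0.16 and −0.21. GRIK1, a kainate receptor subunit, stood at −0.38 (adjusted p = 0.0595) and did not pass, though it did in 8 of the 41 other settings.

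Ion channels and vesicle genes gave small counts. Of 21 sodium and calcium channel genes, 2 were lower and 1 higher. Besides SCN2A, CACNA1A, the pore of P/Q-type calcium channels at nerve terminals, was lower by −0.60 (SE 0.12, adjusted p = 0.00243) with SD levels of 8.50, 8.21, 8.03 and 8.11 against 7.19 to 7.80 (median 7.70) in HFS+R, no overlap, and a second probe at −0.14, and did not pass without SD replicates 1 and 2 together (−0.46, adjusted p = 0.0818). SCN3A was higher by 0.30 (SE 0.09, adjusted p = 0.0319), and its call ended without SD replicate 3 or 4 and without HFS+R replicate 7, 9 or 10 (adjusted p up to 0.149 without SD replicate 4). SCN8A, the sodium channel of axon initial segments, had SD levels of 8.28, 8.08, 8.26 and 8.46 against 8.47 to 8.88 (median 8.58) in HFS+R, apart but not past the test at 0.34 (adjusted p = 0.0537), which it passed in 12 of the 41 other settings. Of 46 potassium channel genes, 2 were lower, the calcium-activated KCNMA1 by −0.52 (SE 0.14, adjusted p = 0.0285) and KCNN3 by −0.31 (SE 0.08, adjusted p = 0.0221). The other probes of KCNMA1 gave −0.08 and −0.03, and it was not called when its probes were averaged. The call of KCNMA1 ended without any 1 of the SD arrays and that of KCNN3 without SD replicate 2 or 3 (adjusted p up to 0.0841 without SD replicate 2 and 0.0945 without SD replicate 3), and KCNN3 was detected on 2 HFS+R arrays. GABBR2, a GABA-B receptor subunit and the 1 call among 14 GABA genes, was lower by −0.28 (SE 0.08, adjusted p = 0.033), which ended without any 1 of the SD arrays or HFS+R replicate 7, 9 or 10 (adjusted p up to 0.126 without SD replicate 4) and with quantile normalization (0.0699).

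Of 36 genes for synaptic vesicle fusion and recycling, 3 were lower and 1 higher. STX1A, a SNARE protein of the presynaptic membrane, was lower by −0.44 (SE 0.12, adjusted p = 0.0281), RAB3A, the vesicle GTPase, by −0.42 (SE 0.12, adjusted p = 0.0431) and RIMS2, an active zone scaffold, by −0.53 (SE 0.15, adjusted p = 0.037). RIMS1, the close relative of RIMS2, was higher by 0.38 (SE 0.09, adjusted p = 0.0121). None of the 4 calls stood with each array left out. STX1A reached an adjusted p of 0.173 without SD replicate 3 and also ended without SD replicates 2 and 4, RAB3A 0.128 without SD replicate 2 among 9 arrays that ended it (all SD arrays and HFS+R replicates 1, 3, 5, 8 and 9), RIMS2 0.17 without SD replicate 2 among 9 (SD replicates 1, 2 and 4 and HFS+R replicates 2, 5, 6, 7, 9 and 10), and RIMS1 0.0911 without SD replicate 4. Of 48 spectrin, ankyrin and axonal cytoskeleton genes, 2 were lower. KIF1B, a motor of mitochondria and vesicle precursors, measured 8.36, 8.30, 7.68 and 8.02 on the SD arrays and from 7.07 to 7.76 (median 7.36) on the HFS+R arrays, a difference of −0.73 (SE 0.13, adjusted p = 0.00141) that did not pass without SD replicates 1 and 2 together (−0.49, adjusted p = 0.0867), and SPTBN4, the spectrin of initial segments and nodes, differed by −0.39 (SE 0.10, adjusted p = 0.0224) but reached 0.0869 without SD replicate 4 and also ended without SD replicate 3. The second probe of SPTBN4 gave −0.05, and SPTBN4 was not called when its probes were averaged. SPTBN1, the general beta spectrin, had SD levels of 9.89, 10.04, 9.57 and 9.87 against 7.72 to 9.81 (median 8.54) in HFS+R and did not pass at −1.19 (adjusted p = 0.0644), though it did in 6 of the 41 other settings. The other probes of SPTBN1 gave −0.33 and −0.11.

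Genes of protein turnover pointed both ways. Of 111 genes for ubiquitin conjugation and removal, 9 were lower (8.11%) and 1 higher. In fold change 63 of the 111 lay above 0 (56.8%, near the 52.3% of all genes). Without SD replicate 2 the lower count was 4 and without SD replicate 3 or 4 it was 6. NEDD4L, a ubiquitin ligase for membrane channels, measured 8.44, 8.34, 8.54 and 8.35 on the SD arrays and from 7.35 to 8.13 (median 7.67) on the HFS+R arrays, a difference of −0.69 (SE 0.11, adjusted p = 0.000641) without overlap. FBXW11, which presents substrates such as beta-catenin to a cullin ligase, had SD levels of 7.30, 7.94, 7.45 and 7.57 against 6.35 to 7.27 (median 6.76) in HFS+R and was lower by −0.80 (SE 0.14, adjusted p = 0.00107). USP49, a deubiquitinase, was lower by −0.74 (SE 0.15, adjusted p = 0.00341) and CUL9, a cullin, by −0.56 (SE 0.12, adjusted p = 0.00353). All HFS+R values of these 4 genes were below all SD values. Of 36 proteasome genes, 5 were higher and 0 lower at an unadjusted p under 0.05 (limma), beside 935 and 1080 of all 9884 genes. After adjustment 3 were higher and 0 lower. They were PSMC6 by 0.37 (SE 0.09, adjusted p = 0.0185), PSMC4 by 0.34 (SE 0.10, adjusted p = 0.0384) and PSMD10 by 0.27 (SE 0.07, adjusted p = 0.0192). The calls of these 3 genes, for ATPases of the proteasome cap and a factor in its assembly, depended on single arrays, with adjusted p values up to 0.0929 without SD replicate 3 for PSMC6 (also SD replicate 4), 0.166 without SD replicate 1 for PSMC4 (also SD replicates 2 and 3 and HFS+R replicates 7 to 10) and 0.0938 without SD replicate 3 for PSMD10, and 0 of the 3 were called with median scaling.

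The zinc finger genes called on all arrays with Z normalization were all lower. Of 252 measured ZNF genes, which mostly encode DNA-binding repressors, 18 were lower (7.14%, against 4.1% of all genes) and 0 higher by limma. At an unadjusted p under 0.05, 36 of the 252 were lower and 9 higher, beside 1080 and 935 of all 9884 genes. Their median was −0.03, but 0.00 without SD replicate 1 and 0.03 without SD replicates 1 and 2 together, where 7 were lower and 3 higher. With quantile normalization and with neqc 1 was higher, and without SD replicate 1 the counts were 12 lower and 3 higher. ZNF503, which acts in neural development, measured 8.65, 8.72, 8.61 and 8.61 on the SD arrays and from 7.91 to 8.30 (median 8.15) on the HFS+R arrays. Every HFS+R array was below every SD array, and the difference was −0.53 (SE 0.08, adjusted p = 0.000397). ZNF394 was at 12.32, 12.17, 12.09 and 12.04 on the SD arrays and from 10.98 to 11.58 (median 11.24) on the HFS+R arrays and ZNF549 at 12.98, 13.05, 13.06 and 13.16 on the SD arrays and from 11.92 to 12.57 (median 12.30) on the HFS+R arrays. The groups of both were apart, by −0.86 (SE 0.14, adjusted p = 0.000549) and −0.74 (SE 0.15, adjusted p = 0.00293), while their second probes gave 0.02 and 0.02. ZNF577 was lower by −0.67 (SE 0.12, adjusted p = 0.00153), with 9 of 10 HFS+R arrays below the lowest SD array, and did not pass without SD replicates 1 and 2 together (−0.51, adjusted p = 0.0714).

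Of 78 genes for histone-modifying enzymes and chromatin, 6 were lower (7.69%) and 1 higher. The lower count was 4 with median scaling, 3 without SD replicate 1 or 4, 2 without SD replicate 3 and 1 without SD replicate 2, and the higher count ran from 0 to 2 over these settings. Besides MSL3, PRMT7, an arginine methyltransferase, was lower by −0.34 (SE 0.08, adjusted p = 0.0141) and KMT2B, a histone methyltransferase of active genes, by −0.40 (SE 0.12, adjusted p = 0.0361), both without overlap. EP300, an acetyltransferase and coactivator, was higher by 0.34 (SE 0.09, adjusted p = 0.023), also without overlap. Leaving out arrays ended the call of PRMT7 (SD replicates 2 and 3, adjusted p up to 0.0527 without SD replicate 3), of EP300 (SD replicates 3 and 4, up to 0.0847 without SD replicate 4) and of KMT2B (SD replicates 2, 3 and 4 and HFS+R replicates 7 to 10, up to 0.107 without SD replicate 3).

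Genes that handle RNA were called in both directions. Of 88 splicing factors and nuclear RNA-binding proteins, 5 were higher (5.68%) and 4 lower (4.55%). The counts were 1 higher and 3 lower with median scaling, 3 and 2 without SD replicate 2, 3 and 4 without SD replicate 3, 5 and 1 without SD replicate 4, and 0 and 2 without SD replicates 1 and 2 together. HNRNPU, a scaffold protein of nuclear RNA, measured 11.17, 11.09, 10.98 and 10.85 on the SD arrays and from 9.77 to 10.49 (median 10.24) on the HFS+R arrays, apart, with a difference of −0.82 (SE 0.14, adjusted p = 0.000698). PRPF8, the core of the spliceosome, was higher by 0.41 (SE 0.09, adjusted p = 0.0058) and SF3B6, which contacts the branch point, by 0.40 (SE 0.09, adjusted p = 0.00741), both without overlap. Both calls ended without SD replicates 1 and 2 together (0.102 and 0.093), and that of SF3B6 also with median scaling (0.201) and when its probes were averaged. The second probe of SF3B6 gave 0.09. RBM5, a splicing regulator, was lower by −0.36 (SE 0.09, adjusted p = 0.0131) and had an adjusted p of 0.0771 without SD replicate 4. Of 15 genes for argonautes and microRNA processing, 3 were lower and 1 higher, and 0 and 1 without SD replicate 4. AGO2, the slicing argonaute, measured 9.97, 10.11, 10.18 and 10.40 on the SD arrays and from 8.94 to 10.18 (median 9.49) on the HFS+R arrays, a difference of −0.64 (SE 0.15, adjusted p = 0.0102), with an adjusted p of 0.0537 without SD replicate 4. Its partners TNRC6B and TNRC6A were at −0.43 (adjusted p = 0.0321) and −0.33 (adjusted p = 0.0433), and the helicase DDX5 at 0.27 (adjusted p = 0.0374). Single arrays ended these calls. For TNRC6B they were SD replicates 1, 2 and 4 and HFS+R replicates 7 and 8 (adjusted p up to 0.095 without SD replicate 4), for DDX5 SD replicates 2, 3 and 4 and HFS+R replicates 6, 7, 9 and 10 (up to 0.169 without SD replicate 3), and for TNRC6A each SD array, HFS replicates 5 and 9 and HFS+R replicates 2, 6, 7, 8 and 10 (up to 0.159 without SD replicate 2).

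Most energy genes lay slightly above 0, and the number called varied with the setting. Of 59 genes for oxidative phosphorylation, 44 were above 0 (74.6%, against 52.3% of all genes) and their median was 0.10, but 1 was called higher and 0 lower by limma. At an unadjusted p under 0.05, 10 of the 59 were higher and 1 lower, beside 935 and 1080 of all 9884 genes. Their higher calls numbered 6 with quantile normalization, 4 with neqc, 3 without SD replicate 1 or 4 and 0 with median scaling or without SD replicate 3. Their median was 0.07 without SD replicate 1, 0.06 without SD replicates 1 and 2 together, and 0.04 with median scaling, beside −0.03 over all genes in the last. UQCR10, a small subunit of complex III, measured 8.87, 8.47, 8.48 and 8.68 on the SD arrays and from 8.83 to 9.19 (median 9.10) on the HFS+R arrays, a difference of 0.43 (SE 0.11, adjusted p = 0.0177) that overlapped, and its adjusted p reached 0.0863 without SD replicate 2 and also failed without SD replicate 3. Its other probes gave 0.09 and 0.04, and it was not called when its probes were averaged. NDUFA12 of complex I stood at 0.44 (adjusted p = 0.0501), ATP5MG of ATP synthase at 0.32 (adjusted p = 0.0616) and COX7A1 of cytochrome oxidase at 0.30 (adjusted p = 0.0676), so none of the 3 passed. In the 41 other settings they passed in 12, 10 and 6. Of 64 mitochondrial ribosomal proteins, 4 were higher (6.25%) and 1 lower. MRPL33 was higher by 0.38 (SE 0.08, adjusted p = 0.00502) without overlap and its second probe gave 0.43, but it did not pass without SD replicates 1 and 2 together (0.0668). MRPL16 and MRPL20 were higher by 0.29 (adjusted p = 0.0213) and 0.29 (adjusted p = 0.025), and MRPL57 lower by −0.37 (adjusted p = 0.026). The calls of MRPL16 (SD replicates 1 and 4, adjusted p up to 0.0959 without SD replicate 4), MRPL20 (SD replicates 1, 2 and 4, up to 0.094 without SD replicate 4) and MRPL57 (SD replicates 1 and 2, up to 0.111 without SD replicate 2) ended without 1 SD array, and median scaling left 0 higher and 1 lower in this list. Of 61 cytosolic ribosomal proteins, 49 were above 0 (80.3%) with a median of 0.10, and 1 was called. The calls numbered 7 with quantile normalization, 3 with neqc, 2 without SD replicate 3 and 0 with median scaling or without SD replicate 1 or 2. The median was 0.05 without SD replicate 1, 0.03 with median scaling and 0.02 without SD replicates 1 and 2 together.

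Antioxidant and chaperone genes were called in both directions. Of 39 antioxidant and detoxification genes, 2 were higher and 2 lower. With PRDX3, MGST3, a membrane glutathione transferase, was higher by 0.30 (SE 0.09, adjusted p = 0.0433), which ended without 10 of the 24 arrays left out singly, SD replicates 1, 2 and 3 and HFS+R replicates 1, 2 and 6 to 10 (adjusted p up to 0.17 without SD replicate 2). GCLC, which makes the precursor of glutathione, was lower by −0.28 (SE 0.08, adjusted p = 0.0278), up to 0.0955 without SD replicate 4 and also lost without SD replicates 2 and 3. GPX8, a peroxidase of the endoplasmic reticulum, was lower by −0.38 (SE 0.09, adjusted p = 0.00902) but was detected on 2 of the 10 HFS+R arrays, so that its size is not exact. Of 48 heat shock proteins and chaperones, 2 were higher and 1 lower. DNAJB6, which keeps proteins from aggregating, measured 10.00, 9.94, 10.16 and 9.94 on the SD arrays and from 10.23 to 10.64 (median 10.38) on the HFS+R arrays, a difference of 0.38 (SE 0.08, adjusted p = 0.00618) without overlap. It did not pass with median scaling (0.158), where 0 genes of this list were higher, or without SD replicates 1 and 2 together (0.0859). DNAJA1 was higher by 0.32 (SE 0.09, adjusted p = 0.0285), up to 0.101 without SD replicate 2 and also lost without SD replicates 1 and 3. DNAJB14 was lower by −0.58 (SE 0.14, adjusted p = 0.0116), with an adjusted p of 0.0563 without SD replicate 1 and its other probes at −0.44 and −0.32.

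On all arrays with Z normalization, membrane traffic held the largest share of calls among the lists of over 50 genes. Of 111 RAB GTPase and endosomal sorting genes, 8 were higher (7.21%) and 9 lower (8.11%). The counts were 5 and 2 without SD replicate 2, 2 and 3 with median scaling and 4 and 0 without SD replicates 1 and 2 together. With median scaling the 111 ubiquitin genes held more calls (0 higher, 7 lower), as they did without SD replicates 1 and 2 together (1 and 5). SNX3, which recycles cargo from endosomes, measured 10.30, 10.67, 10.72 and 10.68 on the SD arrays and from 10.97 to 11.48 (median 11.10) on the HFS+R arrays. Every HFS+R array exceeded every SD array, by 0.54 (SE 0.10, adjusted p = 0.00214), and the call ended without SD replicates 1 and 2 together (0.0633). VPS29, a retromer subunit, was higher by 0.37 (SE 0.08, adjusted p = 0.00801) without overlap, and not called with median scaling (0.323). VPS13C, a lipid transfer protein between organelles, was lower by −0.53 (SE 0.11, adjusted p = 0.00533), while its second probe gave 0.16 and the mean of its probes did not pass (0.179). Of 52 genes for autophagy, lysosome and the vacuolar proton pump, 2 were higher and 2 lower. ATG10, an enzyme of autophagosome conjugation, measured 8.03, 8.06, 7.92 and 8.00 on the SD arrays and from 7.16 to 7.63 (median 7.46) on the HFS+R arrays, apart, with a difference of −0.58 (SE 0.11, adjusted p = 0.00214), and at 0.0515 without SD replicates 1 and 2 together. WIPI2, which marks forming autophagosomes, was lower by −0.48 (SE 0.12, adjusted p = 0.0137), with an adjusted p of 0.0743 without SD replicate 4. LAMP2 of the lysosome membrane was higher by 0.29 (SE 0.07, adjusted p = 0.0196) and GABARAPL2 of the autophagosome by 0.26 (SE 0.08, adjusted p = 0.0437). These 2 calls ended without SD replicates 3 and 4 (LAMP2, adjusted p up to 0.0845 without SD replicate 3) and, for GABARAPL2, without SD replicates 1, 2 and 3, HFS replicates 3 and 4 and HFS+R replicates 1, 2 and 6 to 10 (up to 0.191 without SD replicate 1).

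Of 29 genes for insulin, AKT, GSK3 and mTOR signalling, 2 were lower and 1 higher. GSK3B, the kinase that insulin signalling switches off, measured 10.23, 10.31, 10.06 and 10.43 on the SD arrays and from 8.92 to 10.09 (median 9.24) on the HFS+R arrays. On 8 of 10 HFS+R arrays it was below the lowest SD array, and the difference was −0.89 (SE 0.17, adjusted p = 0.00182), with HFS arrays at 10.13 ± 0.23. IRS2, which carries the insulin receptor signal, was higher by 0.34 (SE 0.08, adjusted p = 0.00738) and PTPN1, the phosphatase that ends it, lower by −0.32 (SE 0.08, adjusted p = 0.0131), both without overlap. IRS2 was not called with median scaling (0.239) or without SD replicates 1 and 2 together (0.114), and PTPN1 ended without SD replicate 3 or 4 (up to 0.0559 without SD replicate 4). FOXO3, a transcription factor held back by AKT, had SD levels of 10.96, 10.92, 10.79 and 10.77 against 9.77 to 11.04 (median 10.30) in HFS+R, and did not pass at −0.49 (adjusted p = 0.105). Its second probe gave 0.21. Of 25 genes for hypoxia, VEGF and nitric oxide, 1 was lower. VHL, which marks hypoxia factors for destruction, measured 8.25, 8.37, 7.61 and 7.74 on the SD arrays and from 6.98 to 7.50 (median 7.31) on the HFS+R arrays, apart, with a difference of −0.73 (SE 0.12, adjusted p = 0.000764) and HFS arrays at 7.50 ± 0.16. Without SD replicates 1 and 2 together, its highest arrays, the difference was −0.41 and did not pass (adjusted p = 0.0783). The second probe of VHL gave −0.13. HIF1A, the factor VHL acts on, stood at 0.44 (adjusted p = 0.0644), TEK, an endothelial receptor, at 0.25 (adjusted p = 0.184) and EDN1, a vasoconstrictor, at −0.31 (adjusted p = 0.164), and these 3 did not pass, though HIF1A did in 9 and TEK in 1 of the 41 other settings.

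The study names 26 genes for the array or as proteins, of which 22 were measured here, and 4 were called between HFS+R and SD, beside 6.3% of all genes. Some of them, GRIN2B, CHRNA5 and COMMD10 included, were named by the study for changes on these same arrays, so their calls are not independent of that choice. VHL and GRIN2B were lower, as given above. CHRNA5, a nicotinic receptor subunit, measured 11.05, 10.82, 10.50 and 10.56 on the SD arrays and from 9.50 to 10.39 (median 9.79) on the HFS+R arrays, apart, with a difference of −0.85 (SE 0.16, adjusted p = 0.00214), but −0.65 without SD replicates 1 and 2 together, which did not pass (adjusted p = 0.0827). COMMD10, of a family that restrains NF-kB, was higher by 0.46 (SE 0.12, adjusted p = 0.0221) without overlap, and its call ended without SD replicate 3 or 4 (adjusted p up to 0.0977 without SD replicate 4) and with median scaling (0.155). Its relative COMMD3 stood at 0.45 (adjusted p = 0.0536) and passed in 7 of the 41 other settings. MT1H, a metallothionein, had SD levels of 7.22, 7.45, 7.07 and 6.99 against 6.90 to 8.78 (median 7.70) in HFS+R and did not pass at 0.60 (adjusted p = 0.304), with HFS arrays at 8.35 ± 0.52. The potassium channel genes KCNS1 and KCNK12 were at 0.23 (adjusted p = 0.258) and −0.10 (adjusted p = 0.618), and BBOX1, of carnitine synthesis, at −0.13 (adjusted p = 0.605). The sirtuins SIRT1 and SIRT2 were at 0.09 (adjusted p = 0.757) and −0.05 (adjusted p = 0.83), but SIRT1 was detected on 2 of 4 SD and 3 of 10 HFS+R arrays and so was close to background, ALDH2, the mitochondrial aldehyde dehydrogenase, at 0.08 (adjusted p = 0.754) and NOS3, the endothelial nitric oxide synthase, at 0.00 (adjusted p = 0.998). BCL2, which blocks apoptosis, stood at −0.19 (adjusted p = 0.352), VEGFA at 0.15 (adjusted p = 0.412), and the inflammation genes IL18, RELA, NFKBIA and AIF1 at −0.30 (adjusted p = 0.179), 0.07 (adjusted p = 0.759), −0.09 (adjusted p = 0.736) and −0.11 (adjusted p = 0.634). CST3, a protease inhibitor, was at 0.00 (adjusted p = 0.998).

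**Figure D3:**
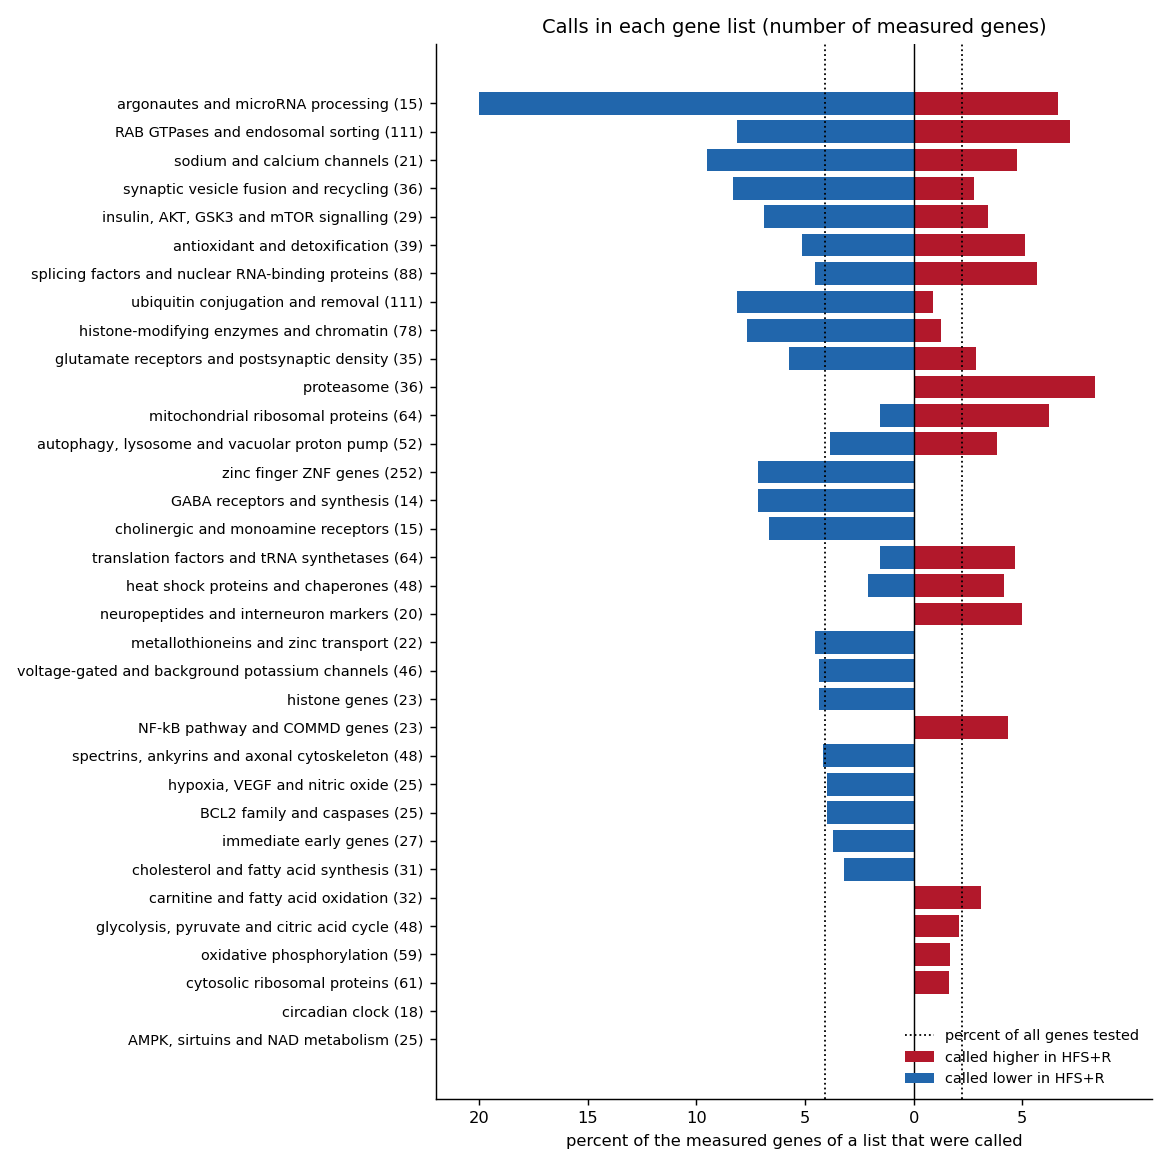
Percent of the measured genes of each list (their number in parentheses) called higher (red, right of 0) and lower (blue, left of 0) in HFS+R than in SD, with dotted lines at the 2.21% and 4.1% of all genes. In lists of under 30 genes the bars stand for at most 4 genes, and of the lists of over 50 genes, those of RAB, ubiquitin, chromatin, ZNF and splicing genes reach beyond the line on the lower side.

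Of 64 translation factor and tRNA synthetase genes 3 were higher and 1 lower (0 higher with median scaling or without SD replicate 2 or 3), and every other list not described above held 0 or 1 call. By limma 0 of 25 genes for AMPK, sirtuins and NAD metabolism and 0 of 18 circadian clock genes were called. At an unadjusted p under 0.05 each list had 1 higher and 1 lower, beside 935 and 1080 of all 9884 genes. After their values were seen, MPC1, which carries pyruvate into mitochondria (0.51, adjusted p = 0.00138), BCL2L1, a blocker of apoptosis (−0.42, adjusted p = 0.00337), and the cell type markers MOG of oligodendrocytes (0.42, adjusted p = 0.00469), TBR1 and NEUROD2 of excitatory neurons (0.50, adjusted p = 0.00374, and −0.39, adjusted p = 0.0271) and ALDH1L1 of astrocytes (−0.57, adjusted p = 0.00878) were picked out as the calls among their lists. The mean marker levels of oligodendrocytes, excitatory neurons and astrocytes are given above and did not pass.

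Calls were more frequent among brighter genes. Of the 2471 dimmest genes 0.85% were higher and 1.62% lower, and of the 2471 brightest 4.17% and 5.54%. For 74 of the higher and 92 of the lower genes a second kept probe existed. It lay on the same side in 53 (71.6%) and 59 (64.1%), beside 63.4% of 2132 genes over all. At an unadjusted p under 0.05 it moved the same way in 25 and 20 and the opposite way in 6 and 10. Over all 2132 genes these counts were 343 and 100. The share that moved the same way was thus 33.8% of the higher and 21.7% of the lower calls, beside 16.1% of all. The share that moved the opposite way was also larger than over all, with 6 of 74 higher and 10 of 92 lower calls beside 100 of 2132 genes. The median change of the brightest probe in the direction of the call was 0.34 and 0.49, and of the second probe 0.13 and 0.08. How far the probes of a gene read the same transcript in monkey was not tested.

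**Figure D4:**
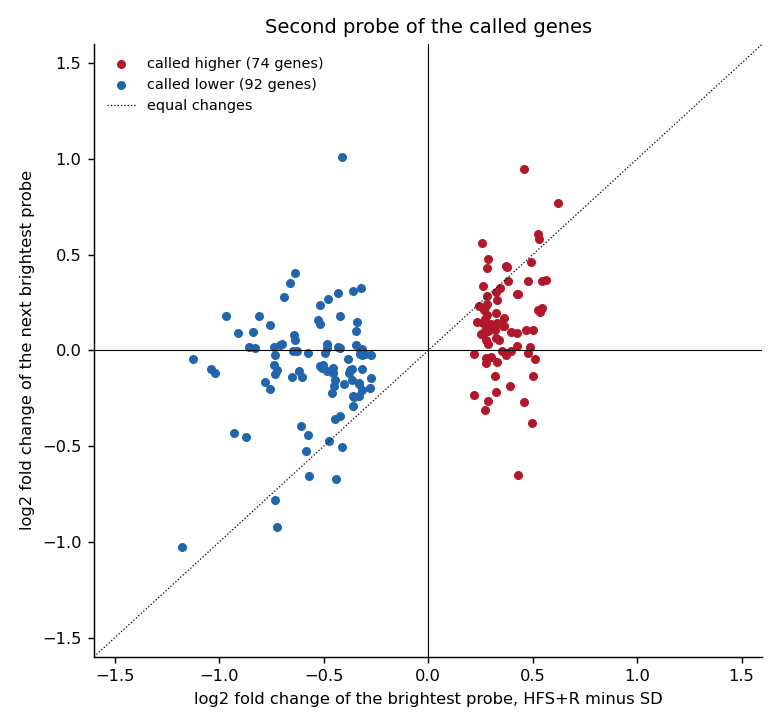
Log2 fold change (HFS+R minus SD) of the next brightest probe (vertical axis) against that of the brightest probe (horizontal axis) for called genes with a second kept probe, 74 higher (red) and 92 lower (blue). The dotted line marks equal changes, and most lower genes lie near 0 on the vertical axis.

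Few SD animals were available, and the calls moved with them. Without 1 SD array at a time 354 to 533 genes were called, without 1 HFS+R array 483 to 654 and without 1 HFS array 603 to 666. SD replicates 1 and 2 left out together gave 325 calls, 172 higher and 153 lower, of which 198 were among the 623. With the endothelial marker level as a covariate, a fit added after the data had been seen, 317 genes were called, 88 higher and 229 lower, and 273 were among the 623. Under the Z, quantile, neqc and median scalings 30 higher and 295 lower genes were called alike, and 58 and 176 were also called without each SD array in turn. Both held for 21 higher and 171 lower genes. Of the 91 named genes called, 32 lost their call with median scaling, which besides those given above were DDX5, DNAJA1, EP300, GABARAPL2, GABBR2, KCNMA1, LAMP2, MGST3, RAB3A, RIMS1, RIMS2, SCN3A, TNRC6A and UQCR10. With the endothelial covariate 40 lost theirs, and without SD replicates 1 and 2 together 40. Of those lost with the covariate, ZNF549, USP49 and GPX8 lost their call in no other setting apart from the replicate block. The others called higher were AASDHPPT, COMMD10, DDX5, DNAJA1, EP300, LAMP2, MRPL16, MRPL20, MTNAP1, PARP4, PDRG1, PRPF8, PSMC6, PSMD10, RIMS1, RNF13, SCN3A, SF3B6, UQCR10 and VPS29. The others called lower were AGO2, GABBR2, GCLC, KCNMA1, KCNN3, KMT2B, MRPL57, PTPN1, RAB3A, RBM5, RIMS2, RYBP, SPTBN4, STX1A, TNRC6A, TNRC6B and WIPI2. With the probes of each gene averaged, 8 of the 91 lost their call, KCNMA1, LAMP2, PSMC4, PSMD10, SF3B6, SPTBN4, UQCR10 and VPS13C. Of the 34 named genes not called, 15 were called in at least 1 other setting.

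**Figure D5:**
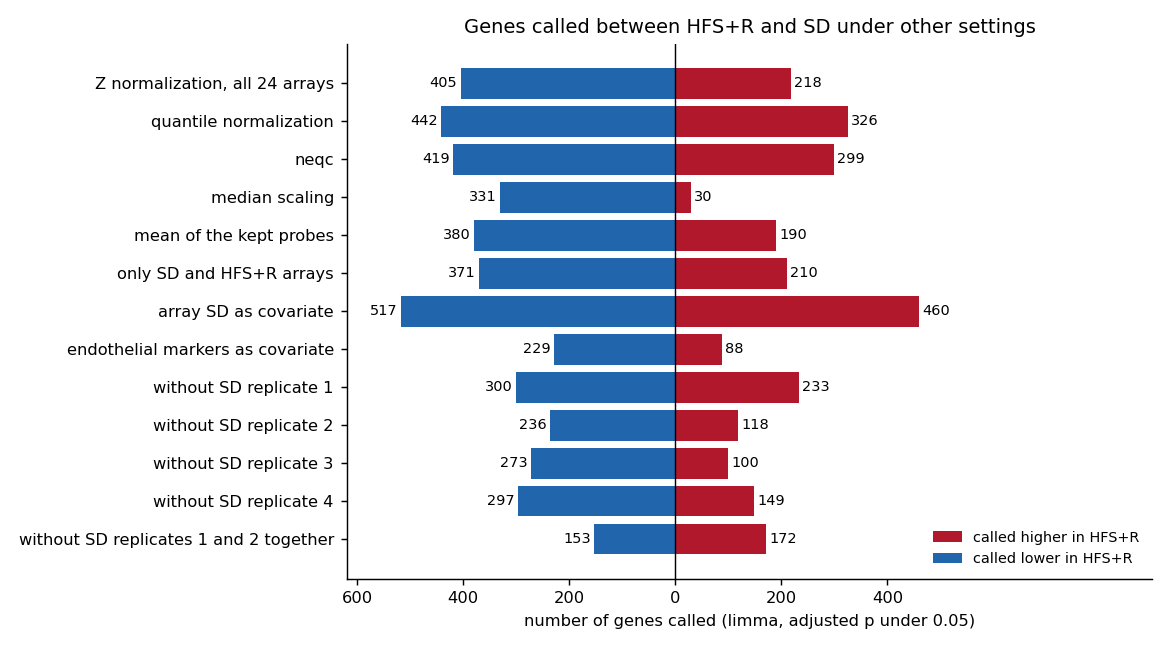
Number of genes called higher (red, right of 0) and lower (blue, left of 0) in HFS+R than in SD at a limma adjusted p under 0.05, under 13 settings. The higher calls range from 30 with median scaling to 460 with the array SD as a covariate, and the lower calls from 153 without SD replicates 1 and 2 to 517.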

How the data were processed

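Cerebral cortex RNA of 24 monkeys, from temporal neocortex per the labels although the study elsewhere names frontal cortex, was hybridized to Illumina HumanHT-12 V4.0 beadchips, with groups read from the labels. Each probe's signal intensity and detection p-value came from GenomeStudio 2011.1 and were deposited by the authors. A Z score for each probe, the log2 signal centred on its array mean and divided by the array SD, was also deposited, and scores recomputed here were within 5e-10 of it. Z scores times 1 common factor (1.46) were fitted with limma 3.58.1 in R 4.3.3, all 24 arrays in 1 model, and 2-sided p-values were adjusted over 9884 genes by Benjamini-Hochberg, with 0.05 as the threshold. Of 47323 probes (30113 with 1 gene symbol, 8 with several, 17202 with none listed) 15531 were kept, 12471 of them with 1 symbol, and the brightest stood for its gene. Array measures were compared by exact permutation over all 1001 splits of 10 and 4 arrays. Marker levels are means of genes scaled to SD 1. The study's thresholds were read as a Z ratio of 1.5, a p of 0.05 and a false discovery rate of 0.3.

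Genes named were the 12 largest rises and falls among calls that were detected throughout the higher group, the 6 smallest p per direction without overlap, the measured genes the study names, and up to 4 smallest p per list described, 125 in all. The members and lists were chosen with earlier results of these data known. Same-numbered SD and HFS+R arrays did not deviate together (r −0.08, −0.12, −0.39 and 0.04), so numbers were not taken as pairs. Other settings covered normalization, filters, probes, covariates, array weights and arrays left out. The fit was tested on simulated arrays before use. The number of arrays limits the precision.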

Additional observations from a re-analysis of the deposited data

Results flagged for a closer look

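In all 12 values of single arrays stood apart from the rest of their group, out of 258 groups of values checked for the named genes and array measures, and chance alone flags about 1 in 20. On SD arrays, GRIN2B on replicate 1 (6.79, nearest 7.36) and SNX3 on replicate 1 (10.30, nearest 10.67) lay low, as did PRMT7 on replicate 1 (8.10, nearest 8.24). On SD replicate 3 CAMK2G was low (11.45, nearest 11.94) and GRIK1 high (8.67, nearest 8.24). On SD replicate 4 CAMK2D was low (7.56, nearest 7.88), and RBM5 (10.78, nearest 10.53), WIPI2 (8.57, nearest 8.29) and DNAJA1 (11.66, nearest 11.38) were high. Among HFS+R arrays ZNF549 was low on replicate 10 (11.92, nearest 12.26), and RAB3A (9.07, nearest 9.69) and BCL2 (7.77, nearest 8.08) were low on replicate 7. The calls of GRIN2B, SNX3, CAMK2D and ZNF549 remained without each of these arrays, and those of CAMK2G, RBM5, WIPI2, DNAJA1, PRMT7 and RAB3A are given above with the arrays that ended them.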

How the results depend on the processing

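Against 623 calls (218 higher, 405 lower), the count was 361 (30 higher) with median scaling, 977 (460 higher) with the array SD as a covariate, 317 (88 and 229) with the endothelial covariate added after seeing the data, 343 higher with array weights, and 1735 (778 and 957) at the study's thresholds. Leaving out 1 array gave 354 to 666 calls, 100 to 242 higher and 236 to 431 lower, and SD replicates 1 and 2 together 325 (153 lower). Quantile normalization gave 768, neqc 718, no filter 531, probes detected everywhere 617, a threshold of 0.05 for detection 631 and the mean of the probes 570. The replicate block could be fitted only on the arrays numbered 1 to 4 and gave 0 calls (0 higher, 0 lower), where the same arrays without the block, a setting added after seeing the data, gave 41 (1 and 40). With the replicate block 0 of the 91 named calls stood, in a fit that also left out the HFS+R arrays numbered above 4, and the numbers pair no animals.

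Of the 91 named genes called, 29 kept their call in every other setting apart from the replicate block, 51 in every fit without 1 SD array and 59 with median scaling (12 of 39 higher, 47 of 52 lower), and 0 changed sign. Signs turned only for values that were not called. NOS3 was −0.0212 with median scaling, −0.00227 with array weights, −0.0235 with the replicate block, −0.00411, −0.0517 and −0.176 with detected probes, oligodendrocyte markers or endothelial markers as a covariate, and −0.0211 without SD replicates 1 and 2. CST3 was 0.064 with array weights, 0.0112 with detected probes and 0.156 with endothelial markers as a covariate. NFKBIA was 0.0375 with the replicate block and 0.0454 with endothelial markers, ALDH2 −0.00332 with endothelial markers, and AIF1 0.0143 with the mean of its probes. Leaving out 1 array moved NOS3 from −0.0229 to 0.0227, CST3 from −0.0695 to 0.0672, NFKBIA from −0.195 to 0.101, ALDH2 from −0.00509 to 0.137, KCNK12 from −0.167 to 0.0398 and SIRT1 from −0.012 to 0.205. It moved the difference in the SD of the log2 signal from −0.0495 to 0.00519, in detected probes from −637.2 to 439.1 (−601.2 at the looser detection threshold), in microglia markers from −0.168 to 0.0837 and in meninges markers from −0.369 to 0.107. The causes were not tested. The 4 SD arrays limit what could be called, and levels near background have no exact size.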
